A study of Mus musculus with 20 samples.

Results

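The 10 genes described here encode the proteoglycans of the dermis and the enzymes that make its hyaluronan. They were chosen by name: Dcn, Bgn, Lum, Fmod, Ogn, Aspn and Prelp, which encode small leucine-rich proteoglycans (SLRPs), Vcan, which encodes the large proteoglycan versican, and the hyaluronan synthases Has2 and Has3. Each member had 1 row among the 46744 rows of the deposited table, and all 10 belonged to the 12683 named genes whose mean reached 1 FPKM. FPKM counts sequenced fragments per gene length and per mapped read, so levels of different genes can be set side by side.

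The RNA came from total skin of mice of the inbred strain C57BL/6. Skin of the Sod2 conditional knockout (cKO, genotype Sod2-/-) was collected at 300 days (n = 3) and at 100 days (n = 3). Control skin (genotype Sod2+/+) was collected at 700 days as 4 samples and at 50 days as 5, and beside the cKO at 300 days as 3 and at 100 days as 2. Sod2 encodes the superoxide dismutase of mitochondria, and the labels name neither the Cre driver nor the cells that lost the gene. The table gives 1 value per gene and group, so the values below carry no replicate error, and no test was possible. The number of reads behind each value is unknown.

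SLRPs are short proteins whose leucine-rich repeats bind collagen fibrils, and they set the thickness and spacing of those fibrils. Versican belongs to another family: a large core with many chondroitin sulphate chains, which binds hyaluronan through its amino-terminal end and makes loose, water-rich matrix. Hyaluronan itself is a long sugar chain without a protein core, spun out through the plasma membrane by the synthases. In skin, fibroblasts are the main source of SLRPs and versican, and both fibroblasts and keratinocytes make hyaluronan.

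The level of Sod2 was 16.8 FPKM in 300-day cKO skin and 23.5 FPKM in its control, and 17.6 and 27.7 FPKM in the 100-day pair. The 700-day and 50-day controls carry one prefix in their titles and the other 4 groups another. Group values (log2) had correlations of 0.922 to 0.957 between groups of one prefix, and of 0.790 to 0.900 between prefixes, over the 12683 genes, and no ratio was taken across them. Malat1 had 0 FPKM in the 700-day and 50-day controls and 6080 to 6461 FPKM in the other 4 groups. Levels may therefore not be comparable between prefixes, and levels set side by side over all 6 groups below share this limit. Sex-linked transcripts separated the groups of each main comparison. Xist was 3.69 FPKM in 700-day against 2580 in 50-day controls, 17.2 in 300-day cKO skin against 2187 in its control, and 4.92 against 1141 for the 100-day pair. In the 700-day controls and both cKO groups 4 Y-linked genes (Uty, Kdm5d, Ddx3y and Eif2s3y) reached 14.7 to 45.1 FPKM, and in the others at most 0.347 FPKM. Age and genotype therefore cannot be told apart from this difference for any member, among them Bgn, which lies on the X chromosome.

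Several members are neighbours in the genome (GRCm38, the assembly mm10, with GENCODE M21 genes). Dcn (97479609 to 97518143) and Lum (97565128 to 97572703) lie on chromosome 10, followed by the related genes Kera and Epyc. These 4 genes span 203 kb. On chromosome 13, Aspn (49544443 to 49567565) and Ogn (49608046 to 49624501) belong to a cluster of 120 kb in the order Ecm2, Aspn, Omd, Ogn. On chromosome 1, Prelp (133910304 to 133921414) and Fmod (134037254 to 134048277) follow Optc within 151 kb. Bgn lies on chromosome X from 73483602 to 73495933, Vcan on chromosome 13 from 89655312 to 89742509, Has2 on chromosome 15 from 56665627 to 56694539 and Has3 on chromosome 8 from 106870242 to 106884566.

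Some of these spans overlap a gene on the opposite strand. The libraries kept strand, per the labels' protocols, but whether the counting used it is not stated, so reads of a gene and its antisense partner cannot be told apart. Ogn and Aspn lie inside Cenpp, which had 1.79 to 4.49 FPKM over the 6 groups. Has3 overlaps Chtf8 (16.9 to 23.6 FPKM), and Has2 overlaps Has2os (0.539 to 2.06 FPKM), which reached levels like those of Has2. Prelp and Vcan overlap antisense transcripts that are predicted genes.

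Promoter sequence from RefSeq (GRCm38.p6) was found for 6 of the 10 members: Bgn, Fmod, Ogn, Aspn, Prelp and Vcan. The 250 bases before the start of Fmod, Ogn, Prelp and Vcan are shown because these genes had lower values in 700-day controls and in both cKO groups than in the skin they were compared with. They run 5′ to 3′ in lower case, with matches to the motifs searched in capitals. Fmod is chr1:134037004-134037253 on the plus strand, Ogn chr13:49607765-49608014 on the plus strand, Prelp chr1:133921402-133921651 on the minus strand and Vcan chr13:89742513-89742762 on the minus strand.
Fmod: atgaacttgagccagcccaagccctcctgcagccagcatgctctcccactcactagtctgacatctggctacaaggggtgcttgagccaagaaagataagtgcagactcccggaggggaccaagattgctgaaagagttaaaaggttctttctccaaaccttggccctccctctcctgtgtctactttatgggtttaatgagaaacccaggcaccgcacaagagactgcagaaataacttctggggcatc
Ogn: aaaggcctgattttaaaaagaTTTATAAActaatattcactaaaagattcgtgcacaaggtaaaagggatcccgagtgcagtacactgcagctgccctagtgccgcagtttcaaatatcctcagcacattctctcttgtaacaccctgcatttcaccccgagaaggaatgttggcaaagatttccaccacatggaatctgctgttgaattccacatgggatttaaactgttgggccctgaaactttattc
Prelp: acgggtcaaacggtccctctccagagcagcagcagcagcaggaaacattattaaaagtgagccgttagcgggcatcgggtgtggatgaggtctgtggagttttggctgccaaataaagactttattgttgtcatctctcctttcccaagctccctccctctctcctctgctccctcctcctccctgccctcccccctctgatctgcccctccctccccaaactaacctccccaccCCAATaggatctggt
Vcan: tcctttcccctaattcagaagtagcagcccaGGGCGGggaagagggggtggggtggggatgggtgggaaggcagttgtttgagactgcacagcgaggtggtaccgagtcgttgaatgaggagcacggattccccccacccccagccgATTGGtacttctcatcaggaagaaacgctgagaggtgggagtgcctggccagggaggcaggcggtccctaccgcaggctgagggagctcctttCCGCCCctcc

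The promoter motifs searched on both strands were the TATA box TATAAA, the box CCAAT and the GC box GGGCGG. Distances are counted from the RefSeq start, which for Ogn, Prelp and Vcan differs from the GENCODE start given above. The GENCODE span of Prelp reaches into its window and into the match described here. The AP-1 site TGANTCA and the related cyclic AMP element TGACGTCA were searched as well. AP-1 was included because the series title names JunB, one of its subunits. Ogn held TATAAA on both strands in overlapping letters, 222 to 229 bases before the start. Fmod held none of the motifs. Prelp held CCAAT 11 to 15 bases before the start, and Vcan held CCAAT on the reverse strand 99 to 103 bases before it and GGGCGG on each strand. None of the 6 promoters held TGANTCA or TGACGTCA, which were found in 6.75% and 1.55% of 32851 mouse promoter windows of the same length. TATAAA was found in 12.4%, CCAAT in 33.8% and GGGCGG in 32.7% of them. The base composition of these windows differed, with 51.2% G and C for Fmod, 42.0% for Ogn, 55.6% for Prelp and 62.4% for Vcan, against a median of 52.4% over all windows. A match describes the letters and says nothing about binding.

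Decorin, encoded by Dcn, was the most abundant member in every group, at 193 to 316 FPKM and above 98.2% or more of the 12683 genes. It carries a single chondroitin or dermatan sulphate chain and binds collagen as well as TGF-beta. The next places differed between groups. In 700-day controls Aspn (30.7 FPKM) came before Lum (27.9) and Bgn (17.8), and in 50-day controls Lum (37.4) came before Aspn (33.6) and Bgn (23.9). In 300-day cKO skin the order was Lum (49.0), Bgn (43.0) and Aspn (26.8), and in 300-day controls Lum (39.5), Ogn (29.3) and Bgn (28.8). At 100 days Bgn (35.0), Aspn (20.4) and Lum (18.0) followed Dcn in cKO skin, and Lum (64.4), Bgn (37.7) and Ogn (30.4) in control skin. Fmod (0.581 to 3.37 FPKM), Has2 (0.698 to 3.29) and Has3 (2.32 to 5.75) were the members with the lowest means.

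**Figure D1:**
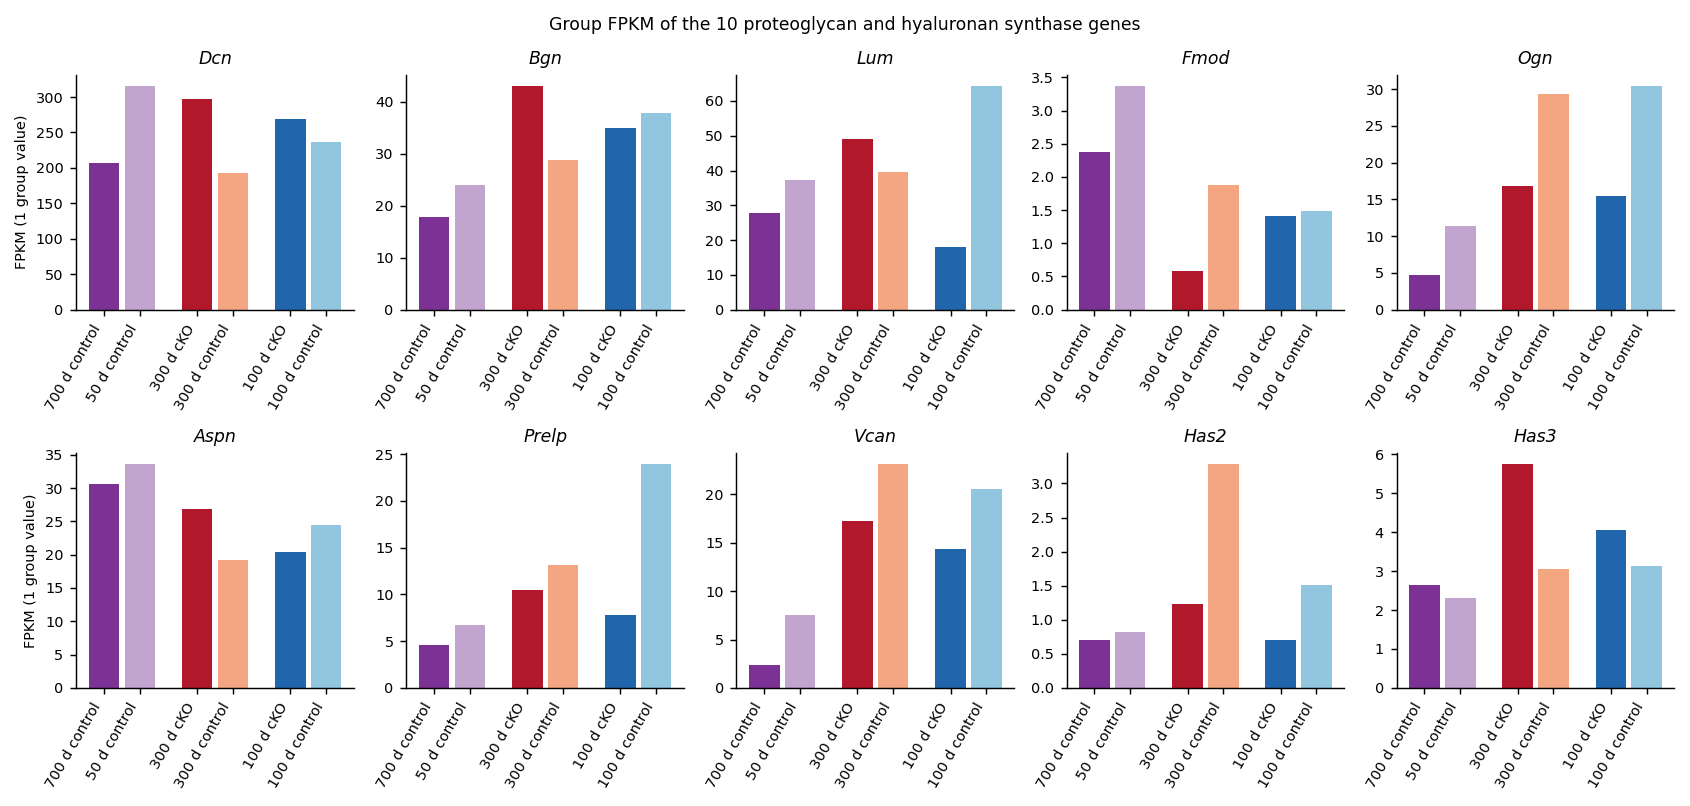
Group FPKM (y axis, linear from 0, 1 scale per gene) of the 10 members in the 6 groups (x axis). Each bar is 1 group value with no error. Dcn reached 316 FPKM, and Fmod, Has2 and Has3 stayed below 6.

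The 7 SLRP members summed to 295 FPKM in 700-day and 432 in 50-day controls, to 445 in cKO and 325 in control skin at 300 days, and to 367 in cKO and 418 in control skin at 100 days. Dcn made up most of each sum. Its share was 70.1% in 700-day and 73.1% in 50-day controls, 67.0% in cKO and 59.4% in control skin at 300 days, and 73.3% in cKO and 56.4% in control skin at 100 days. Without Dcn the sums were 88.0 against 116 FPKM, 147 against 132 FPKM and 97.95 against 182 FPKM in the same order. The sum without Dcn in 100-day cKO skin was thus lower than in its control, while Dcn itself was not. Lum held 4.90% of the sum in cKO and 15.4% in control skin at 100 days.

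**Figure D2:**
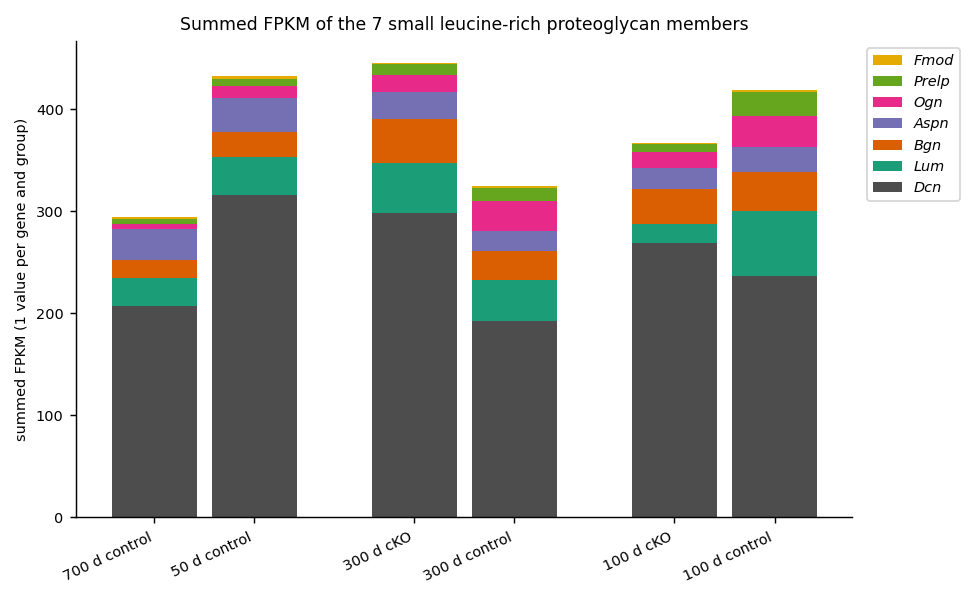
Summed FPKM (y axis) of the 7 SLRP members in the 6 groups (x axis), stacked by gene with 1 value per gene and group. Dcn is the largest part of every bar, and the parts of Lum, Ogn and Prelp are smaller in 100-day cKO skin than in its control.

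The first comparison concerned age, with 700-day against 50-day control skin. Nearly the whole set was lower in the old group, and the difference passed the size counted for osteoglycin and versican. Counting took every gene with a log2 ratio of (FPKM + 1) of 1 or more in size, which understates the change of genes near 1 FPKM. Of the 10 members 2 were lower and none higher, against 3.29% of all genes lower and 0.694% higher. The log2 ratios of the members had a median of -0.41, with 9 of 10 below 0, and those of all genes a median of -0.03.

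Vcan had 2.32 FPKM in 700-day and 7.54 FPKM in 50-day controls, a log2 ratio of -1.36. Versican fills the dermal papilla of growing hair follicles as well as the loose dermis. None of 10 measured dermal papilla and dermal sheath markers was counted in this comparison (median -0.29). That list summed to 61.4 FPKM in 700-day and 63.8 FPKM in 50-day controls, and its part in the Vcan value was not tested. Ogn had 4.68 against 11.4 FPKM (-1.13). Osteoglycin, also called mimecan, is an SLRP that takes part in setting the thickness of collagen fibrils. No other member passed the size counted.

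Dcn had 207 FPKM in 700-day and 316 FPKM in 50-day controls, a log2 ratio of -0.61. Bgn, whose product biglycan is the closest relative of decorin and carries a pair of chains, had 17.8 against 23.9 FPKM (-0.41). Lum, which encodes lumican, a keratan sulphate SLRP that limits fibril growth, had 27.9 against 37.4 FPKM (-0.41). Prelp, whose product anchors basement membranes to connective tissue, had 4.62 against 6.72 FPKM (-0.46). Fmod, which encodes fibromodulin, a partner of collagen crosslinking, had 2.37 against 3.37 FPKM (-0.38). These 5 genes were all lower by less than the size counted.

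Aspn and the hyaluronan synthases differed least. Aspn, which encodes asporin, an SLRP with an aspartate-rich start and no sugar chain, had 30.7 against 33.6 FPKM (-0.13). Has2, the main synthase of fibroblasts, had 0.6997 against 0.821 FPKM (-0.10), below 1 FPKM in both groups. Has3, a synthase found in keratinocytes, was the one member with a higher value, at 2.64 against 2.32 FPKM (0.13).

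Marker lists moved beside these values. The 12 fibroblast markers had a median of -0.58 with 3 lower and none higher, and their summed level was 201 FPKM in 700-day and 315 FPKM in 50-day controls. None was listed at 0, and Pdgfra, a general marker of fibroblasts, had 5.24 against 10.5 FPKM in a row shared with a microRNA. All 9 skeletal muscle markers were lower, with sums of 92.5 and 3790 FPKM, and 7 of 10 adipocyte markers were lower, with sums of 214 and 621 FPKM. Of 11 hair matrix and shaft markers 4 were lower, with sums of 269 and 488 FPKM. Of 9 macrophage markers 5 were lower, with sums of 56.6 and 123 FPKM, and of 7 secretory epithelium markers 5 were lower, with sums of 66.4 and 98.3 FPKM. Of 10 suprabasal and stressed keratinocyte markers 6 were higher, with sums of 4779 and 3247 FPKM. Their part in the members' values was not tested. In RNA of whole skin, fewer cells of a type and less RNA per cell cannot be told apart.

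The second comparison set cKO skin at 300 days against control skin of that age. The set was divided: Dcn, Bgn, Lum, Aspn and Has3 had higher values in cKO skin, and Fmod, Ogn, Prelp, Vcan and Has2 had lower ones. None of the 10 passed the size counted, against 1.98% of all genes higher and 5.25% lower. The median of the members was 0.00 and that of all genes -0.01.

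Dcn had 298 FPKM in cKO and 193 FPKM in control skin, a log2 ratio of 0.63. Bgn had 43.0 against 28.8 FPKM (0.56), Aspn 26.8 against 19.3 FPKM (0.46) and Lum 49.0 against 39.5 FPKM (0.31). The 3 SLRPs of the decorin class, Dcn, Bgn and Aspn, were thus all higher in cKO skin. Has3 had 5.75 against 3.05 FPKM (0.73), the highest log2 ratio of the set.

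On the other side Has2 had 1.22 FPKM in cKO and 3.29 FPKM in control skin, a log2 ratio of -0.95. Fmod had 0.581 against 1.88 FPKM (-0.87), Ogn 16.9 against 29.3 FPKM (-0.76), Vcan 17.2 against 23.1 FPKM (-0.40) and Prelp 10.5 against 13.2 FPKM (-0.30). Has2 and Fmod are low genes, and both passed the size counted with a pseudocount of 0.5, at -1.13 and -1.14, or when values were rescaled to equal totals (-1.07 and -1.03).

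At 300 days the fibroblast markers had a median of -0.33, with 2 lower and none higher, and summed to 246 FPKM in cKO and 350 FPKM in control skin. Within that sum Cd34 had 38.4 against 71.3 FPKM and Thy1 18.7 against 45.0 FPKM. Ratios were positive for Fbln1 (0.37), Mfap4 (0.33) and Twist2 (0.15), small for Prrx1 (-0.03) and Lrig1 (-0.10), and negative for the others. Dcn, Bgn, Lum and Aspn had higher values in cKO skin beside this lower sum. Type I collagen, to which decorin binds, was higher too: Col1a1 had 544 FPKM in cKO skin against 170 (log2 ratio 1.67), and Col1a2 had 545 against 242 (1.17). The collagens did not rise as a set. The 14 measured fibrillar collagens and partners had a median of -0.11, with these 2 counted as higher and 1, Col5a3 (-1.01), as lower. B and T lymphocyte markers summed to 3.90 FPKM in cKO and 314 FPKM in control skin, with all 8 lower, and 5 of 9 macrophage markers were lower. Of 10 suprabasal and stressed keratinocyte markers 7 were higher, with sums of 1566 against 859 FPKM, and of 8 basal keratinocyte markers 1 was higher, with sums of 2561 against 1690 FPKM. Hair matrix and shaft markers summed to 1920 against 1304 FPKM, with 5 of 11 higher. Of 10 adipocyte markers 7 were lower (1661 against 3516 FPKM), as were 6 of 7 secretory epithelium markers (34.3 against 140 FPKM). Their part in the members' values was not tested.

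The third comparison asked the same at 100 days. Lumican and PRELP, members of one SLRP class, were lower in cKO skin by more than the size counted, osteoglycin came close to it, and decorin and biglycan had nearly the same level in both groups. Of the 10 members 2 were lower and none higher, against 4.35% of all genes lower and 2.32% higher. The median log2 ratio of the members was -0.37, with 8 of 10 below 0, and that of all genes 0.02.

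Lum had 18.0 FPKM in cKO and 64.4 FPKM in control skin, a log2 ratio of -1.78 and the lowest value of the set in any comparison. Prelp had 7.76 against 23.9 FPKM (-1.51). In control skin at 100 days both genes had their highest level of the 6 groups. Fmod, the third member of that class, had 1.41 against 1.48 FPKM (-0.04).

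Ogn had 15.4 FPKM in cKO and 30.4 FPKM in control skin (-0.94), and reached -1.08 when values were rescaled to equal totals. That rescaling shifted the median of all genes by -0.12 in this comparison. Has2 had 0.698 against 1.504 FPKM (-0.56, and -1.01 with a pseudocount of 0.1), Vcan 14.4 against 20.5 FPKM (-0.49) and Aspn 20.4 against 24.4 FPKM (-0.25). Bgn had 35.0 against 37.7 FPKM (-0.11). Dcn and Has3 had higher values in cKO skin, at 269 against 236 FPKM (0.19) and 4.04 against 3.14 FPKM (0.29).

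At 100 days all 10 adipocyte markers were lower, with sums of 1588 FPKM in cKO and 4807 FPKM in control skin, as were 6 of 7 secretory epithelium markers (39.3 against 433 FPKM). The fibroblast markers had a median of -0.48 with 1 higher and none lower, and summed to 236 against 301 FPKM. Hair matrix and shaft markers summed to 3072 against 1191 FPKM, with 4 of 11 higher. Their part in the members' values was not tested.

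**Figure D3:**
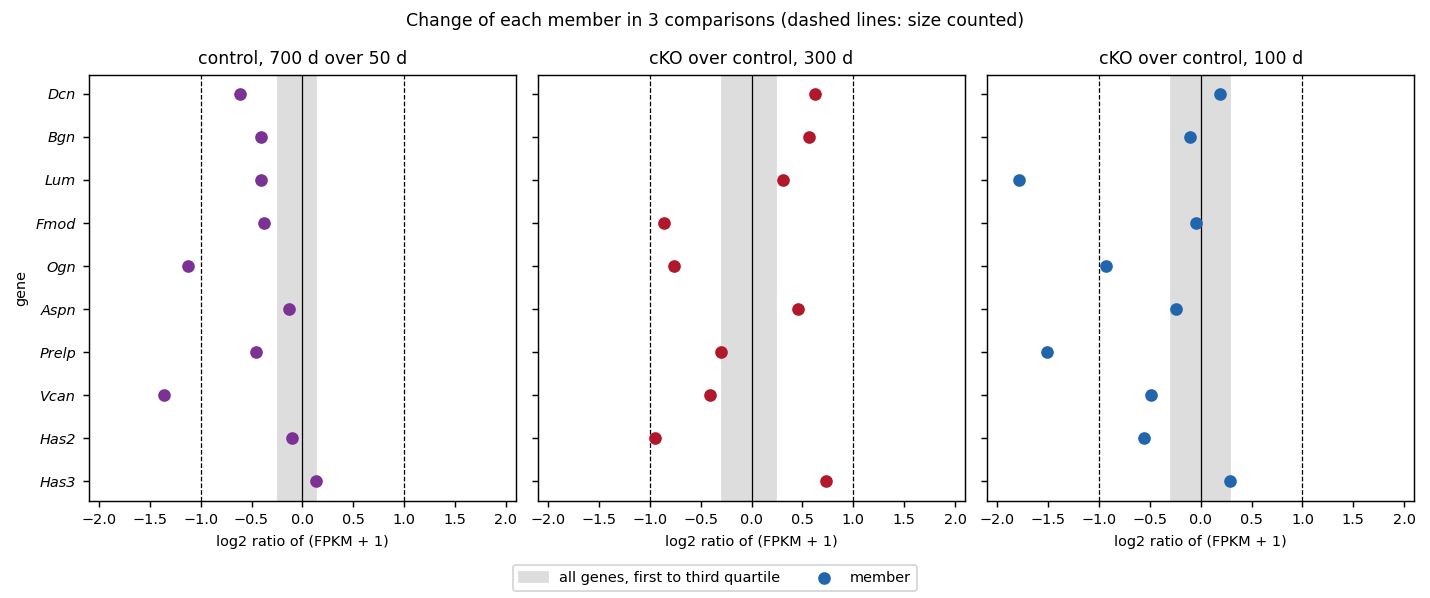
Log2 ratio of (FPKM + 1) (x axis) of each member (y axis) for 700-day over 50-day controls, cKO over control skin at 300 days and cKO over control skin at 100 days. Dashed lines mark the size of 1 counted, and the grey band runs from the first to the third quartile of 12683 genes. Vcan and Ogn pass the left line in the first panel, no member passes in the second, and Lum and Prelp pass the left line in the third.

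These 3 comparisons have no group in common, but in each the old or cKO group was the one with Y-linked transcripts. Age and genotype cannot be told apart from that difference here either. In all 3 comparisons the values of Fmod, Ogn, Prelp, Vcan and Has2 were lower, which makes 5 of 10 members, against 21.1% of all genes. The count took the sign only, and Fmod differed by just -0.04 at 100 days and Has2 by -0.10 in the old group. Has3 alone had a higher value in all 3, against 17.5% of all genes. For Ogn the log2 ratios were -1.13, -0.76 and -0.94, the most even of these profiles. Within the pair of synthases, the level of Has3 relative to Has2 was higher on the side of age or knockout each time. It was 3.78-fold in 700-day and 2.83-fold in 50-day controls, 4.69-fold in cKO and 0.930-fold in control skin at 300 days, and 5.80-fold in cKO and 2.09-fold in control skin at 100 days. These ratios rest on low Has2 values and do not depend on the scaling of a group.

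Neighbouring members differed from each other in their ratios. On chromosome 13, Ogn was 0.153-fold of Aspn in 700-day and 0.340-fold in 50-day controls, 0.629-fold in cKO and 1.52-fold in control skin at 300 days, and 0.758-fold in cKO and 1.25-fold in control skin at 100 days. Its neighbours Omd and Ecm2, encoding osteomodulin and an extracellular matrix protein, stayed within the size counted in these comparisons. On chromosome 10, Lum was 0.0669-fold of Dcn in cKO and 0.273-fold in control skin at 100 days, and 0.165-fold against 0.205-fold at 300 days. On chromosome 1, Prelp differed by -1.51 at 100 days and Fmod by -0.04. Optc, the third gene there, had 0.871 FPKM in cKO and 1.18 FPKM in control skin (-0.22).

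The remaining comparisons use the same 4 group values as the genotype comparisons and are not independent of them. In control skin at 300 against 100 days none of the 10 members was counted, against 3.6% of all genes higher and 1.11% lower. Prelp had 13.2 FPKM at 300 days and 23.9 FPKM at 100 days (-0.82), Lum 39.5 against 64.4 FPKM (-0.69) and Has2 3.29 against 1.504 FPKM (0.78). Rescaling to equal totals shifted the median of all genes by -0.18 here, gave Vcan a log2 ratio of -0.03 in place of 0.16, and gave 60.7% in place of 76.4% higher among all genes counted. In cKO skin 1 member was higher at 300 than at 100 days and none lower, against 2.50% of all genes higher and 1.60% lower. That gene was Lum, with 49.0 FPKM at 300 days and 18.0 FPKM at 100 days (1.40). Fmod had 0.581 against 1.41 FPKM (-0.61).

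The genotype difference at 300 days minus that at 100 days was 2.09 for Lum and 1.21 for Prelp on the log2 scale. Those 2 members were counted as higher and none as lower, against 3.96% of all genes higher and 4.98% lower. Fmod, at -0.82, was also counted as lower with a pseudocount of 0.5 (-1.09) or 0.1 (-1.47). Lum had 0.31 at 300 days and -1.78 at 100 days, and Prelp -0.30 and -1.51. For Ogn and Vcan the genotype difference was much the same at both ages, with differences of 0.18 and 0.08. Of the 14 fibrillar collagens and partners measured, 5 were counted as higher and none as lower in this difference, which was 1.87 for Col1a1, 1.71 for Col1a2, 1.65 for Col3a1, 1.43 for Col5a2 and 1.26 for Col6a3. Col1a1 had 1.67 at 300 days and -0.20 at 100 days, and Col5a2 -0.01 and -1.44. Marker lists of other tissues shifted in this difference as well. Of 7 secretory epithelium markers 5 were higher (median 1.61), as were 3 of 9 skeletal muscle (0.89) and 3 of 10 adipocyte markers (0.79). Of 10 suprabasal and stressed keratinocyte markers 4 were higher and 1 lower (0.83), and all 8 B and T lymphocyte markers were lower (-3.39). Their part in the members' values was not tested.

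Other genes of proteoglycan and hyaluronan biology were read from 9 lists. Genes averaging 1 FPKM or more entered the counts. Of all genes, 0.694% to 5.25% were counted as higher or as lower, depending on the comparison. Of 12 other SLRP genes 6 were measured (Optc, Omd, Podn, Chad, Tsku and Ecm2). None passed the size counted in any of the 6 comparisons, which for 6 genes is near those shares. The largest ratio was that of Omd in the cKO at 100 days (0.84). None of 7 other hyalectan and link protein genes reached a mean of 1 FPKM, among them Acan, which encodes aggrecan. Versican was thus the one hyalectan above that mean in this skin.

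Of the genes that build sulphated chains on the core proteins, few were counted as well. Of 18 measured genes of the chain linker and chondroitin/dermatan sulphate, none was counted in the old group or the cKO at 100 days. In the cKO at 300 days 1 was lower, against 5.25% of all genes. That was the sulphotransferase Chst3, at 0.713 FPKM in cKO and 2.50 FPKM in control skin (-1.03). Medians were -0.02, -0.13 and -0.22 for the old group and the cKO at 300 and 100 days. Of 6 measured keratan sulphate genes 1 was lower in the cKO at each age. Chst1, which sulphates the keratan chains that lumican can carry, had 1.82 FPKM in cKO and 5.70 FPKM in control skin at 300 days (-1.25), and 2.36 against 9.15 FPKM at 100 days (-1.60).

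Of 7 measured genes of hyaluronan synthesis and turnover, none was counted in the old group or in the cKO at 300 days, and 1 was lower in the cKO at 100 days. This was the hyaluronidase Hyal2, at 12.6 FPKM in cKO and 26.5 FPKM in control skin (-1.01). Has1, the third synthase, stayed at 0.289 to 0.837 FPKM and did not enter the counts. Of 8 measured receptors and binders 1 was lower in each of the 3 comparisons. Itih5, whose product couples to hyaluronan, had 3.21 against 7.73 FPKM in the old group (-1.05) and 7.37 against 29.1 FPKM in the cKO at 100 days (-1.85). Lyve1, the hyaluronan receptor of lymphatic vessels and some macrophages, had 4.04 FPKM in cKO and 15.9 FPKM in control skin at 300 days (-1.75). Cd44, the main hyaluronan receptor, lay between 31.5 and 53.7 FPKM and passed the size counted in none of the 6 comparisons.

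Versican's partners were read together with the proteases that cut it. Of 10 measured genes 2 were lower in the old group, none was counted in the cKO at 300 days and 1 was lower in the cKO at 100 days. Fbn1, which encodes the microfibril protein fibrillin-1, had 9.11 against 22.2 FPKM in the old group (-1.20). Fn1, which encodes fibronectin, had 23.5 against 48.2 FPKM in the old group (-1.01) and 44.3 against 89.9 FPKM in the cKO at 100 days (-1.004). Adamts1, Adamts5, Adamts9, Adamts15 and Adamts20 had means of at least 1 FPKM, and none was counted in these 3 comparisons.

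Among 19 measured proteoglycans of cell surfaces and basement membranes, 2 were lower in the old group. They were Gpc3, a glypican, at 2.31 against 6.57 FPKM (-1.19) and Srgn, the proteoglycan of secretory granules, at 6.996 against 16.1 FPKM (-1.10). In the cKO 1 was lower at 300 days, the syndecan Sdc3 at 4.19 against 10.6 FPKM (-1.16). At 100 days 1 was lower, Smoc1 at 5.00 against 13.7 FPKM (-1.29), and 2 were higher, Prg4 and Spock2.

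Of 14 measured fibrillar collagens and partners, 2 were lower in the old group (median -0.82), 2 higher and 1 lower in the cKO at 300 days (median -0.11), and 6 lower in the cKO at 100 days (median -0.75). At 100 days Col3a1, the chain of type III collagen, had 881 FPKM in cKO and 1842 FPKM in control skin (-1.06) in a row shared with a predicted gene. Col6a2 had 11.9 against 31.2 FPKM (-1.32). Col5a3, a minor chain of fibrils, was counted as lower in all 3 comparisons, at -1.03, -1.01 and -1.67. Its level was 2.08 against 5.30 FPKM in the old group, 7.14 against 15.4 FPKM in the cKO at 300 days and 6.25 against 22.1 FPKM at 100 days. The other collagen lower in the old group was Col14a1, which associates with fibril surfaces, at 0.871 against 7.32 FPKM (-2.15). In the cKO at 100 days Col6a3 had 18.9 against 70.6 FPKM (-1.85) and Col5a2 31.7 against 87.8 FPKM (-1.44). The collagens and the 10 members had medians below 0 in the old group and in the cKO at 100 days. So had every other list with measured genes, so this sign was not particular to them. The medians of those other lists ran from -0.48 to -0.02 in the old group and from -0.40 to -0.05 in the cKO at 100 days.

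**Figure D4:**
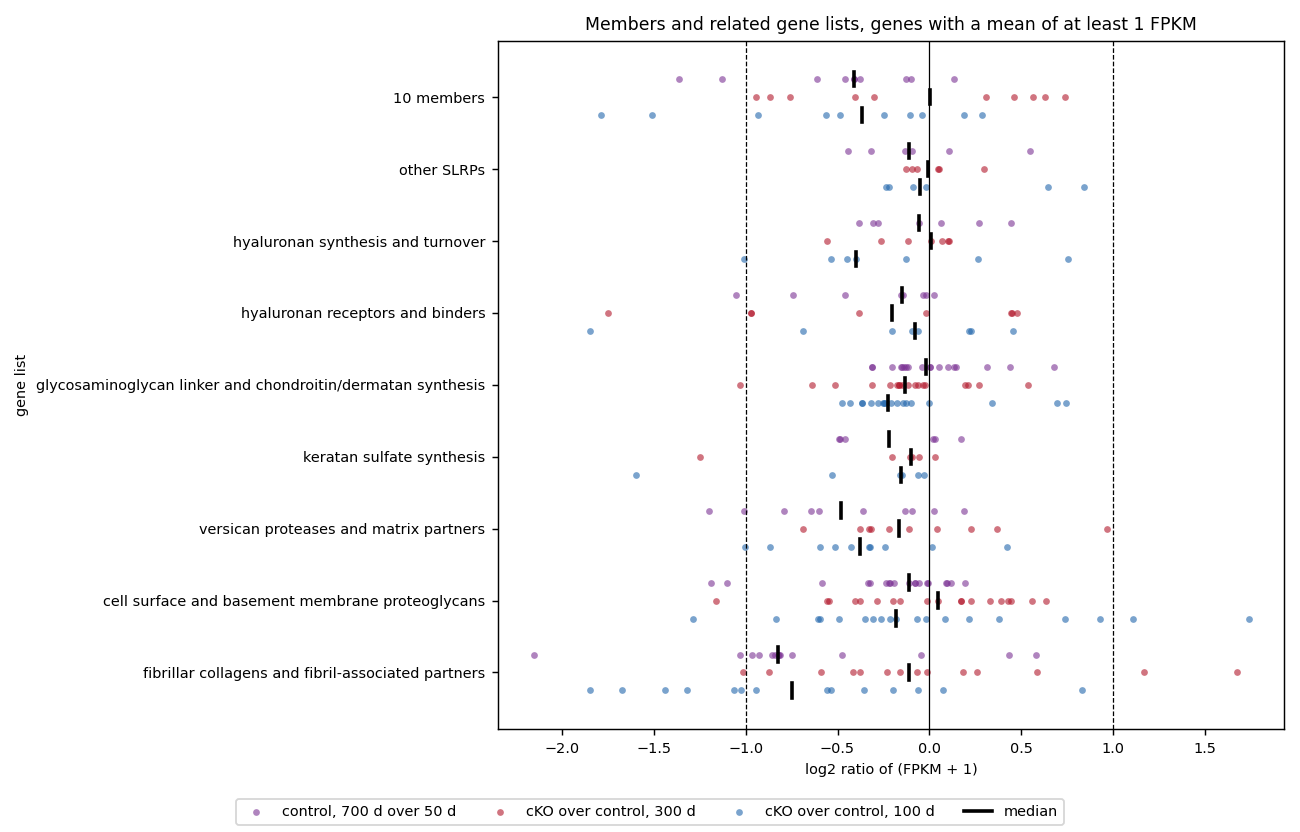
Log2 ratio of (FPKM + 1) (x axis) of the 10 members and of the genes of 8 related lists that averaged 1 FPKM or more (y axis), for 3 comparisons in colour, with black bars for medians and dashed lines at the size counted. Collagens and the members spread to the left in the old group and in the cKO at 100 days, where the medians of all lists shown lie below 0. No other SLRP gene passes a dashed line, and of the chain-building genes Chst1 and Chst3 do.

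Profiles were compared as log2(FPKM + 1) over the 6 groups, centred within each title prefix, by the root mean square distance to 9029 genes of mean 5 FPKM or more. Over 6 values many genes lie close to any profile, so the names are a description. Among the members, Bgn and Aspn were nearest to each other (0.10), and Dcn was nearest to Bgn (0.11). Ogn and Vcan were nearest to each other (0.19), as were Lum and Prelp (0.30).

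Outside the set, Dcn was close to Etv4 and Pde4d (both 0.08), and Bgn was nearest to Etv4 (0.04), Hist2h2ac and Ttc39c (both 0.05). Lum was nearest to P3h1 (0.09), Tug1 (0.12) and Eepd1 (0.15), and Prelp to Ccdc80 (0.06), Hemk1 and Enpep (both 0.10). P3h1 had 4.41 FPKM in cKO and 15.2 FPKM in control skin at 100 days, and Ccdc80 had 31.7 against 105 FPKM. Ogn was nearest to Cdh5, Fzd4 (both 0.10) and Hacd1 (0.11), and Vcan to Mlip (0.04), Filip1 (0.08) and Gyg (0.10). Fmod was nearest to Pecam1, Alg11 (both 0.05) and Cfap20 (0.06), and Aspn to Ppp1r16a (0.02), Noc4l (0.03) and Trim23 (0.04). Has2 was nearest to Stab1 (0.06), Serpinb1a (0.08) and Lyn (0.09). Has3 was nearest to Celsr2 (0.02), Perm1 and Med19 (both 0.03).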

How the data were processed

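Whole skin RNA of 20 mouse samples lost its ribosomal RNA through either of 2 kits and was made into directional libraries, per the labels' protocols. HISAT2, Cufflinks and Cuffdiff and the build mm10 are named in the submitters' processing notes. Versions, the annotation and how samples were combined are not given in the sources used here. In the table the authors deposited, each gene has 1 FPKM value per group. Groups came from the source names.

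From these, log2 ratios of (FPKM + 1) were computed for 20663 genes in a row that holds 1 named gene, and counts used the 12683 with a mean of at least 1 FPKM. Predicted genes, microRNAs, small nucleolar RNAs and pseudogenes were not taken as named genes. With 1 value per group, neither p-values nor errors could be computed. All members are reported. From each list, genes past the size counted whose higher group reached 5 FPKM are named by rule, up to 5 per comparison. Chst3, Optc, Has1, Cd44 and the Adamts genes were added after their values were seen. Likeness took the 3 nearest genes, of which 1 is not reported here. The members and lists were chosen with earlier results of these data known. Counting was tested on simulated data with large changes planted in well-expressed genes. That checked the code only and not the counts of low genes. As alternatives the pseudocount was set to 0.1 or 0.5, the filter was dropped or raised to 5 FPKM, values were rescaled to equal totals or to one median, and rows of a symbol were summed. Python 3.11.15, pandas 2.3.3, numpy 2.4.6 and matplotlib 3.10.9 were used.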

Additional observations from a re-analysis of the deposited data

Results flagged for a closer look

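Lum had a higher value in cKO than in control skin at 300 days (log2 ratio 0.31) and a lower one at 100 days (-1.78). It stands here because the genotype difference had opposite signs at the 2 ages and its own difference, 2.09, was larger than 1. With 1 value per group, this difference was not tested. Marker lists of several tissues shifted in the same difference, as given above, and their part was not tested either.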

How the results depend on the processing

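With a pseudocount of 0.1, 2 members were counted in the cKO at 300 days, 1 in control skin at 300 against 100 days and 2 in cKO skin at 300 against 100 days, where 0, 0 and 1 were counted with a pseudocount of 1. In the cKO at 300 days 2 members were also counted with a pseudocount of 0.5 and after rescaling to equal totals, which gave 1 in control skin at 300 against 100 days. These were Has2 and Fmod, and Prelp (-1.02) in the last case. For the genotype difference 3 members in place of 2 were counted with a pseudocount of 0.1 or 0.5, the third being Fmod, and Has2 passed the size counted in the cKO at 100 days with 0.1 (-1.01). Of 462 member values under the alternatives, 449 stayed on the same side of the size counted and 13 moved past it. None that had been counted was lost or changed sign. Changes of the filter or of the rows used could not alter a member's ratio, because each member had 1 row of its own. Many of the 449 were therefore fixed in advance. The counts over all genes moved with the pseudocount of 0.1 to 958 in place of 505 for 700-day against 50-day controls, 1365 in place of 846 for the cKO at 100 days and 918 in place of 520 for cKO skin at 300 against 100 days. With a mean of at least 5 FPKM fewer genes entered (9029). The counts were 475 in place of 917 for the cKO at 300 days, 546 in place of 846 at 100 days, 264 in place of 598 and 299 in place of 520 for 300 against 100 days in control and cKO skin, and 597 in place of 1134 for the genotype difference. Using rows with 1 symbol only was added after seeing the data and could not change a count of members. No paired analysis was possible because the columns hold group values and carry no replicate number, and for the same reason no replicate could be left out. Depth is unknown, so no limit of detection is given for Has2 or Fmod.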

Other observations

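A few genes of the lists, chosen after their values were seen, had their highest level in 100-day cKO skin. Prg4, which encodes the joint lubricant lubricin, had 4.42 FPKM in cKO and 0.625 FPKM in control skin at 100 days, and at most 1.19 FPKM in the other groups. Acan had 2.48 against 0.699 FPKM, Chad, an SLRP of cartilage, 2.04 against 0.941 FPKM and Spock2 4.85 against 1.71 FPKM. Of 7 cartilage and tendon markers 3 were measured, and none was counted in the cKO at 100 days. Sox9 had 14.4 against 9.98 FPKM, Scx 3.01 against 2.03 FPKM and Tnmd 1.85 against 4.54 FPKM. Omd, the neighbour of Ogn, had 5.18 against 2.45 FPKM, while Ogn had 15.4 against 30.4 FPKM.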
